A study of Mus musculus with 12 samples.

Results

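The control libraries of the GC2 cell line were set against those of primary mouse spermatocytes, to describe how much of the germ cell and meiotic transcriptome the line holds. GC2 is a continuous line that is used as a cultured stand-in for spermatocytes. The comparison takes 6 of the 12 libraries of a study of prohibitin (Phb), 3 titled as GC2 control and 3 titled as control spermatocytes. The Phb-depleted libraries were not used. GC2 cells came from a repository and were grown in serum-containing medium, with the genotype given as control. The sources used here do not give what the control culture received. The spermatocytes have the genotype control too. They were taken from enzyme-digested tubules by flow sorting after Hoechst staining of DNA. The sources used here do not give the age and strain of the mice or any allele or Cre driver that the controls carried. The libraries are called biological replicates without the culture or animal behind each one.

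Meiosis starts when germ cells leave the mitotic spermatogonial state, in mice on retinoic acid and Stra8. In prophase, Spo11 breaks the DNA, recombinases repair the breaks against the homologous chromosome, and the synaptonemal complex holds the homologs along their length on a meiosis-specific cohesin axis. In pachytene, A-MYB (Mybl1) and other factors turn on piRNA genes and many genes that are used later in sperm, while the sex chromosomes are silenced. Germ cells also replace many somatic housekeeping proteins with testis-specific paralogs. In somatic cells these genes are kept off by DNA methylation and by repressor complexes that hold E2F6, MGA and PCGF6.

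The GC2 and spermatocyte values stand in tables with different rows, 25911 and 36987, that were quantified apart. A level set across them is therefore a description with no p-value, and the kind of sample and the table cannot be told apart. Genes with a row naming only that gene in both tables were kept, 20159 in all, out of 23033 such names in the GC2 table and 35368 in the spermatocyte table. Within each library a gene was given its percentile, the share of the other shared genes with a lower FPKM. A gene was called lower in GC2 when all 3 GC2 percentiles lay below all 3 spermatocyte percentiles, the means differed by at least 20 points, and every spermatocyte library reached 1 FPKM. It was called higher by the mirror of that rule, so genes above percentile 80 in both groups could not be called, and 2370 genes were there. A gene was counted as on in a group when all 3 libraries reached 1 FPKM.

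By this rule 2348 shared genes were called lower in GC2 (11.6% of those compared) and 1606 higher (7.97%). Lower calls made up 59.4% of all calls, 49.7% after quantile normalization, 47.8% among genes with a mean of 1 FPKM or more, and 74.3% among genes with the same transcripts in both tables. Of 11078 genes on in spermatocytes, 7610 were on in GC2 (68.7%), and of 8513 genes on in GC2 the same 7610 were on in spermatocytes (89.4%). Spearman's rho across genes was 0.660 to 0.671 between a GC2 and a spermatocyte library, 0.912 to 0.918 between GC2 libraries and 0.979 to 0.980 between spermatocyte libraries. Among genes with a mean of 1 FPKM or more, the median rho between groups was 0.362, where it was 0.664 over all. Genes are not independent replicates, and between 19.07% and 22.2% of shared genes were listed at 0 in a GC2 library against 7.71% to 8.09% in a spermatocyte library. Phb itself was at 56.6, 54.0 and 52.4 FPKM in GC2 and at 12.6, 13.4 and 13.9 FPKM in spermatocytes.

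Most germ cell genes were off in GC2. Across 11 germ cell lists with 207 genes, 141 had a row in both tables and 137 of these were on in the spermatocytes. Of the 137, 18 were also on in GC2 (13.1%, where the share over all shared genes was 68.7%). There were 119 calls lower and 0 calls higher among the 141, where 11.6% of all shared genes were called lower. By percentile 135 of the 141 lay wholly lower in GC2 and 4 wholly higher, where 6499 and 7387 of 20159 shared genes did. The largest difference toward GC2 was 27.2 points, in a spermatogonial gene that was not called. The median germ list gene stood at percentile 26.7 to 27.3 in the GC2 libraries and at 89.7 to 90.4 in the spermatocyte libraries. Below, background is the share over all shared genes, and for genes on in GC2 it is taken among those on in spermatocytes. A further 55 list genes on in spermatocytes had no row in the GC2 table and were not compared. The GC2 table also holds genes at 0 in every library, so a missing row was not read as 0.

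**Figure D1:**
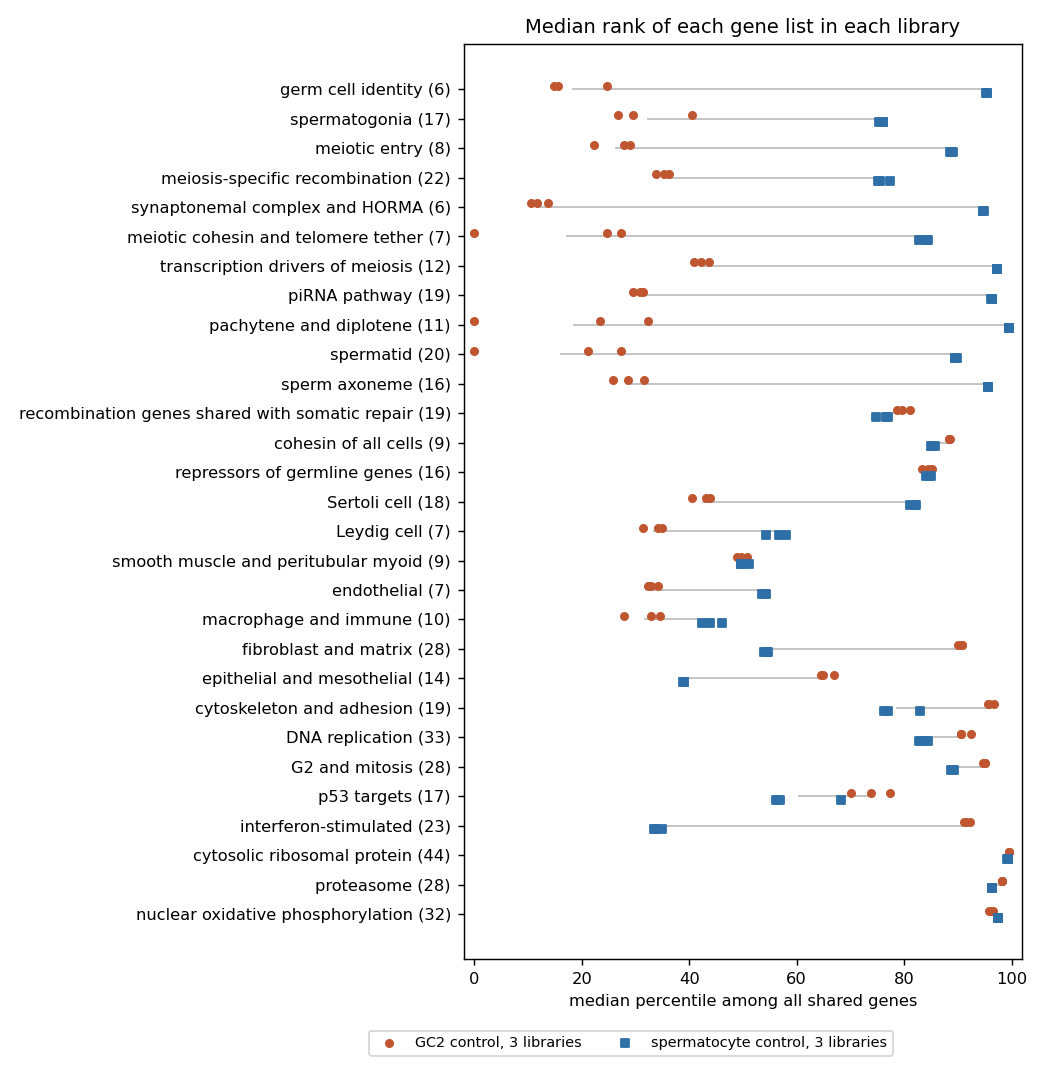
Median percentile of each gene list (y axis, number of genes with a row in both tables in brackets) among the 20159 shared genes, in each of 3 GC2 control libraries (circles) and 3 spermatocyte control libraries (squares), with a line between the group means. The 11 germ cell lists at the top lie far to the left in GC2, the fibroblast, epithelial and interferon lists lie to the right, and the repair, cohesin and housekeeping lists nearly coincide.

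The RefSeq table of promoters on GRCm38.p6 held 110 of the 137 germ list genes on in spermatocytes, each as the 250 bases before and 50 after its most upstream start. The letters TCCCGC, the core that E2F6 is known to bind, stood on either strand in 37 of the 110 windows (33.6%), against 20.1% of 27025 promoters of that length. Among all shared genes on in spermatocytes the share was 36.9%, above that of the germ list. TCCCGC was therefore not more frequent in the germ list than among genes on in spermatocytes that had a window. Only 8165 of the 11078 genes on in spermatocytes had one (73.7%), and the rest were not examined. The cyclic AMP response element TGACGTCA was in 0 of the 110, in 1.85% of all and in 3.38% of the 8165. Median CpG number was 15 in the germ list windows, 7 over all promoters and 21 over the 8165. Nothing is read from a split by state in GC2, since it would rest on 13 genes, those of the 18 on there that had a window (72.2%). The 250 bases upstream of the RefSeq start are shown for 3 genes to which the comparison returns, 2 of them off in GC2 (Sycp3, Smc1b) and 1 on (Psmc3ip), with TCCCGC or its reverse complement in capitals. All 3 hold 1 match, but most germ list windows hold none, among them those of Dazl and Stra8, which are off in GC2 too.
Sycp3, chr10:88459337-88459586, plus strand: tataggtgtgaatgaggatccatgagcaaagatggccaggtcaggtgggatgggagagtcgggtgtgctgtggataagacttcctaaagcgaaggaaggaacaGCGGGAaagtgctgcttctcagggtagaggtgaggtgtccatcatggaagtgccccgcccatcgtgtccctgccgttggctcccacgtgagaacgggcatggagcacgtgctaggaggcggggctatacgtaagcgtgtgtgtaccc
Smc1b, chr15:85131958-85132207, minus strand: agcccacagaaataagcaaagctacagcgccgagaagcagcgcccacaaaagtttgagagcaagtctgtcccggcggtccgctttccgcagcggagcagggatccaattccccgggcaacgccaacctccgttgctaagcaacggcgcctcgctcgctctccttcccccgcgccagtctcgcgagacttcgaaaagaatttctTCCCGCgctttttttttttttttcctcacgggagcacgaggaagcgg
Psmc3ip, chr11:101095436-101095685, minus strand: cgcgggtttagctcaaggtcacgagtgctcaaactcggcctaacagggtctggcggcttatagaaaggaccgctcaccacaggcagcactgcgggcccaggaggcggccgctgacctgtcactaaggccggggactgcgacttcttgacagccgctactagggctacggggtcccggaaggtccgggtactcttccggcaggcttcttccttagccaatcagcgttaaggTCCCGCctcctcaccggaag

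The genes that define germ cells were at or near 0 in the line. Ddx4, the germ cell RNA helicase (GENCODE M21 on GRCm38, chromosome 13, 112598333 to 112652475, minus strand), was at 0.04, 0.12 and 0.05 FPKM in GC2 and at 152, 159 and 159 FPKM in spermatocytes. Dazl, an RNA-binding protein that germ cells need to develop (chromosome 17, 50279395 to 50293636, minus strand), was listed at 0 in all 3 GC2 libraries and at 110.2, 114 and 112 FPKM in spermatocytes. The groups did not overlap by percentile for either gene. The same held for 6499 of 20159 shared genes in this direction and for 7387 in the other. Of 6 germ cell identity genes compared, 5 were called lower (background 11.6%). Tex15 was listed at 0 throughout GC2 against 20.0 to 20.2 FPKM. The exception was Taf4b, a subunit of the general transcription factor TFIID that is enriched in gonads. Its FPKM was 2.25, 2.31 and 2.17 in GC2 and 11.3, 10.9 and 11.1 in spermatocytes, with a percentile difference of -18.8 points that missed the call.

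Spermatogonial genes were mostly off as well, with 4 of 16 on in GC2 (background 68.7%) and 11 of 17 called lower (background 11.6%). Of the 17 compared, 16 were on in the spermatocyte libraries, and whether spermatogonia gave those values was not tested. Dmrt1, which holds spermatogonia out of meiosis, was at 0 to 0.01 FPKM in GC2 and 43.6 to 45.4 FPKM in spermatocytes. Kit, the receptor of differentiating spermatogonia, was at 0.01, 0.02 and 0.03 FPKM in GC2 and at 8.21, 8.0 and 8.29 FPKM in spermatocytes. The 4 that were on in GC2 are genes that other cell types also express. Uchl1, a ubiquitin hydrolase, was the most abundant at 33.9, 32.2 and 28.7 FPKM in GC2 and 99.5, 101 and 98.1 FPKM in spermatocytes. Etv5, Foxo1 and Bcl6b, all transcription factors, lay between 1.63 and 2.45 FPKM in GC2 and were not called. Lin28a, an RNA-binding protein, was at 1.01, 0.82 and 0.02 FPKM in GC2, so its level there differed between libraries.

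At meiotic entry, 6 of 8 genes were called lower (background 11.6%). Stra8, the retinoic acid target that starts meiosis, was at 0.02, 0 and 0 FPKM in GC2 and at 37.0, 36.8 and 37.2 FPKM in spermatocytes. Rbm46, an RNA-binding protein needed for the switch to meiosis, was listed at 0 in all GC2 libraries against 24.5, 25.8 and 24.7 FPKM. The others, Ythdc2 and Fbxo47, were on in GC2. Ythdc2, an RNA helicase that acts with Meioc, was at 3.52, 3.72 and 3.66 FPKM in GC2 and 7.50, 7.47 and 7.21 FPKM in spermatocytes. Meioc itself was at 0.05, 0.01 and 0.05 FPKM in GC2 and 42.6, 43.1 and 43.7 FPKM in spermatocytes. Fbxo47, an F-box protein, was at 1.16 to 1.56 FPKM in GC2 and 4.33 to 5.02 FPKM in spermatocytes.

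The recombination machinery split by whether it is used only in meiosis. Of 22 meiosis-specific recombination genes on in spermatocytes, 2 were on in GC2 (background 68.7%) and 16 were called lower (background 11.6%). Spo11, which makes the breaks, was at 0, 0.01 and 0.03 FPKM in GC2 and at 17.5, 17.6 and 17.3 FPKM in spermatocytes. Hfm1, a helicase of crossover formation, was listed at 0 in every GC2 library and at 12.3, 13.4 and 13.3 FPKM in spermatocytes. The recombinase Dmc1, at 11.9 FPKM on average in spermatocytes, had no GC2 row.

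The 2 genes that were on are partners. Mnd1 (chromosome 3, 84087933 to 84155786, minus strand) and Psmc3ip (chromosome 11, 101091823 to 101095436, minus strand) encode MND1 and HOP2, which together help the recombinases pair DNA strands. Mnd1 was at 12, 8.77 and 10.4 FPKM in GC2 and at 8.91, 9.78 and 7.58 FPKM in spermatocytes, and these ranges overlapped. Psmc3ip was at 15.8, 15.5 and 15.4 FPKM in GC2 and at 33.9, 34.8 and 39.9 FPKM in spermatocytes. Neither was called, and the percentile differences were 6.40 and -7.15 points. Prdm9, the methyltransferase that places the breaks, was at 1.30, 0.73 and 0.74 FPKM in GC2 and at 5.46, 5.62 and 5.19 FPKM in spermatocytes. Prdm9 fell short of a call as well, by a difference of -14.8 points.

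Repair genes that meiosis shares with somatic cells stood at like ranks in both kinds of sample. Of 19 on in spermatocytes, 17 were on in GC2 (background 68.7%). The list median was percentile 78.6 to 81.1 in GC2 and 74.8 to 76.9 in spermatocytes. Trip13, which remodels HORMA proteins in meiosis and mitosis, was at 25.4, 24.1 and 23.5 FPKM in GC2 and 11.2, 10.4 and 11 FPKM in spermatocytes. H2afx, the histone that marks breaks, was the 1 gene called lower. Its FPKM was 16.1, 0 and 0 in GC2 against 24.6, 23.4 and 21.3, so the call rests on 2 GC2 libraries that list it at 0.

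No gene of the synaptonemal complex list was on in GC2 (background 68.7%), and all 6 that could be compared were called lower (background 11.6%). Sycp3, the axis protein used to stage spermatocytes (chromosome 10, 88459569 to 88473236, plus strand), was at 0.10, 0 and 0 FPKM in GC2 and at 156, 165 and 159.7 FPKM in spermatocytes. Sycp1, which spans the complex, was at 0.01, 0.03 and 0.03 FPKM in GC2 and at 69.2, 69.0 and 68.8 FPKM in spermatocytes. Syce2, of its central element, was at 0, 1.10 and 0 FPKM in GC2 and at 24.4 to 25.7 FPKM in spermatocytes. Syce1 had no GC2 row and averaged 172 FPKM in spermatocytes.

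Cohesin showed the same split within 1 complex. All 7 meiotic cohesin and telomere tether genes were called lower (background 11.6%), and 1 of them was on in GC2 (background 68.7%). The 9 cohesin genes of all cells were on in both kinds of sample. Of these 0 were called, but members above percentile 80 in both groups could not be. Smc1b was at 0.04, 0.03 and 0 FPKM in GC2 and at 54.2, 54.2 and 54.7 FPKM in spermatocytes. Its somatic counterpart Smc1a was at 44.1, 42.0 and 39.6 FPKM in GC2 and 8.67, 8.91 and 9.06 FPKM in spermatocytes. Stag3 was the meiotic subunit that was on in GC2, at 1.86, 2.25 and 2.11 FPKM, against 74.6, 74.0 and 74.8 FPKM in spermatocytes. The spermatocyte libraries lay far above GC2 for Stag3, which was called lower with a percentile difference of -36.6 points. The 9 cohesin genes of all cells had list medians of 88.4 to 88.6 in GC2 and 85.0 to 85.7 in spermatocytes. Their percentile differences ran from -8.90 to 18.6 points.

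**Figure D2:**
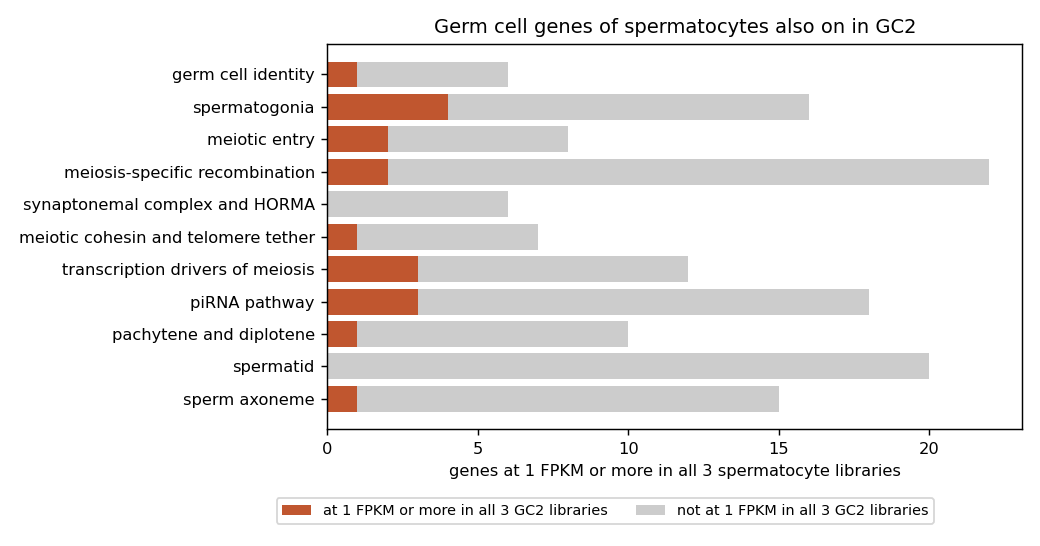
Number of genes at 1 FPKM or more in all 3 spermatocyte control libraries (bar length, x axis) for each germ cell list (y axis), with the part that also reached 1 FPKM in all 3 GC2 control libraries in colour. No list has more than 4 such genes, and the synaptonemal complex and spermatid lists have 0.

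Of 12 transcription factors and chromatin readers that drive the meiotic programme, 3 were on in GC2 (background 68.7%) and 11 were called lower (background 11.6%). Mybl1, which encodes A-MYB, was at 2.03, 2.74 and 2.53 FPKM in GC2 and at 17.4, 18.3 and 18.2 FPKM in spermatocytes. Tcfl5, a transcription factor that acts with A-MYB, was at 0, 0 and 0.02 FPKM in GC2 and at 89.1, 83.6 and 90.4 FPKM in spermatocytes. Phf7, a chromatin reader of the male germ line, was at 1.09, 1.42 and 1.32 FPKM in GC2 and at 172, 168 and 168 FPKM in spermatocytes. Both Mybl1 and Phf7 were called lower although they counted as on. Tbpl1, a TATA-binding protein paralog, was not called, at 14.1, 11.8 and 13.5 FPKM in GC2 and 59.6, 53.6 and 68.8 FPKM in spermatocytes.

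The piRNA pathway makes small RNAs that silence transposons in germ cells. Of 18 of its genes on in spermatocytes 3 were on in GC2 (background 68.7%), and 16 of 19 compared were called lower (background 11.6%). Tdrd1, a scaffold of the processing bodies, was listed at 0 in all GC2 libraries and at 59.2, 59.9 and 59.3 FPKM in spermatocytes. Mov10l1, the helicase that starts piRNA processing, was at 0, 0 and 0.01 FPKM in GC2 and at 41.3, 41.9 and 40.2 FPKM in spermatocytes. The PIWI protein Piwil1 and the pathway factor Mael had no GC2 row and averaged 136 and 412 FPKM in spermatocytes.

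The 3 piRNA genes that were on are all members of the Tudor domain family. Tdrd7 was at 18.1, 14.1 and 16.3 FPKM in GC2 and at 50.7, 51.3 and 47.8 FPKM in spermatocytes, and was not called. Tdrd9 was at 2.91, 3.82 and 5.43 FPKM in GC2 and 37.0, 39.2 and 39.1 FPKM in spermatocytes, and Tdrkh was at 1.18 to 1.26 FPKM in GC2 and 10.8 to 12.3 FPKM in spermatocytes. Tdrd9 and Tdrkh were called lower.

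**Figure D3:**
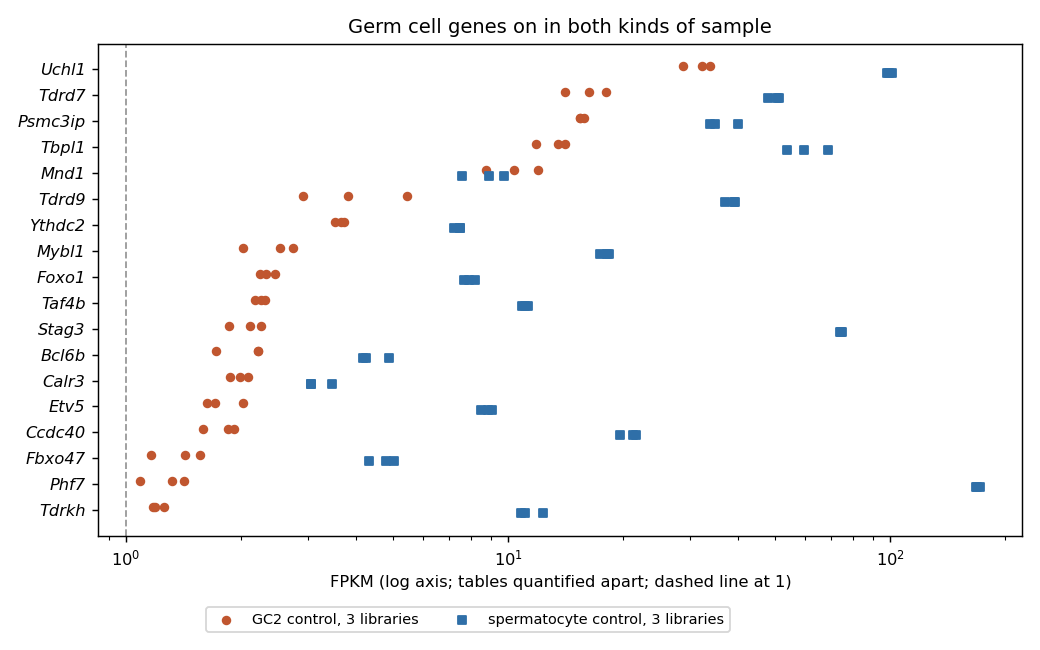
FPKM (log x axis) of the 18 germ list genes on in both kinds of sample, in 3 GC2 control libraries (circles) and 3 spermatocyte control libraries (squares), with a dashed line at 1 FPKM. Mnd1 is the gene whose ranges overlap, and 6 of the 18 were called lower by percentile.

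Genes of later stages held some of the highest levels of the spermatocyte libraries and were almost all under 1 FPKM in GC2. Of 10 pachytene and diplotene genes on in spermatocytes, 1 was on in GC2 (background 68.7%) and 9 were called lower (background 11.6%). Ldhc, the testis lactate dehydrogenase (chromosome 7, 46861203 to 46878142, plus strand), was listed at 0 in all GC2 libraries and at 1416, 1429.8 and 1437 FPKM in spermatocytes. Hspa2, a heat shock protein needed to finish meiosis, was listed at 0 in GC2 as well and was at 317, 317 and 319 FPKM in spermatocytes. The gene that was on was Calr3, a calreticulin paralog, at 1.99, 1.87 and 2.09 FPKM in GC2 and 3.46, 3.05 and 3.05 FPKM in spermatocytes. Insl6, a relaxin family hormone, was at 3.67, 3.81 and 0 FPKM in GC2 and 78.9 to 88.3 FPKM in spermatocytes.

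All 20 spermatid genes compared were called lower (background 11.6%), and 0 of them were on in GC2 (background 68.7%). Tnp2, a transition protein of spermatid chromatin, was listed at 0 in GC2 and at 192, 193 and 187 FPKM in spermatocytes. Of 16 sperm axoneme genes 15 were called lower (background 11.6%), among them the dynein assembly gene Ccdc40 with a difference of -30.5 points. Ccdc40 still counted as on in GC2, at 1.85, 1.59 and 1.92 FPKM on a row of assembled transcripts, against 21.3, 21.6 and 19.6 FPKM in spermatocytes. Ropn1l, of the fibrous sheath and radial spokes, was at 0.48, 0.62 and 0.40 FPKM in GC2 and 457, 461 and 453 FPKM in spermatocytes.

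Markers of Sertoli cells and spermatids had high values in the spermatocyte libraries, while the Leydig and macrophage markers compared were lower. A sort on Hoechst-stained DNA is meant to set spermatocytes apart from haploid spermatids and diploid somatic cells. The protamine genes Prm1 and Prm2 and the transition protein gene Tnp1, which mark spermatids, averaged 140.0, 198 and 211 FPKM there and had no GC2 row. All 18 Sertoli cell markers compared were on in spermatocytes, with summed levels of 1118 to 1223 FPKM, against 32.4 to 33.3 FPKM in GC2. The Sertoli genes Aard and Cst9 were at 254 to 258 FPKM and at 192 to 205 FPKM in spermatocytes and at 0 in every GC2 library. Leydig markers summed to 22.3 to 22.95 FPKM and macrophage markers to 19.5 to 24.7 FPKM in spermatocytes. The sums cover 18 of 22 Sertoli, 7 of 12 Leydig and 10 of 16 macrophage genes, so they span lists of unlike size. Of the genes left out, 3 Sertoli, 2 Leydig and 4 macrophage markers were on in spermatocytes. Whether these values come from other cells or from the spermatocytes themselves was not tested, nor was their part in the genes called lower. Fewer cells of a type and less RNA per cell cannot be told apart in such samples.

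Paralog pairs gave a measure inside each library, which does not depend on its scaling. It still depends on the transcripts behind each row, and the shares were not checked on genes with the same transcripts in both tables. Of 35 pairs of a testis-specific gene and its somatic counterpart, 13 had a value in all 6 libraries. The testis gene's share of the summed FPKM was lower in every GC2 library than in every spermatocyte library in all 13. It was above 50% in all spermatocyte libraries for 11 pairs and in all GC2 libraries for 1. The median share was 0.376% in GC2 and 85.0% in spermatocytes.

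For lactate dehydrogenase, Ldhc made up 0% of Ldhc plus Ldha in GC2 and 87.8%, 87.8% and 87.9% in spermatocytes. Ldha was at 253, 257 and 252 FPKM in GC2 and 197, 198 and 198 FPKM in spermatocytes. The glycolytic Gapdhs held 0.13%, 0.20% and 0.12% against Gapdh in GC2 and 94.9%, 93.2% and 93.8% in spermatocytes. Cytochrome c followed the same pattern, with Cyct at 0%, 0.16% and 0% in GC2 and 73.5%, 72.9% and 72.4% in spermatocytes.

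Among chromatin proteins, Smc1b held 0% to 0.09% in GC2 and 85.8% to 86.2% in spermatocytes, and Stag3 12.2% to 13.2% and 90.5% to 91.2%. The pair above 50% in GC2 was Tbpl1 and Tbp, where Tbpl1 held 76.7%, 76.7% and 79.7% in GC2 and 88.4%, 87.1% and 90.2% in spermatocytes. Calr3 stayed a minor part against Calr in both, at 0.66% to 0.74% and 1.29% to 1.46%.

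**Figure D4:**
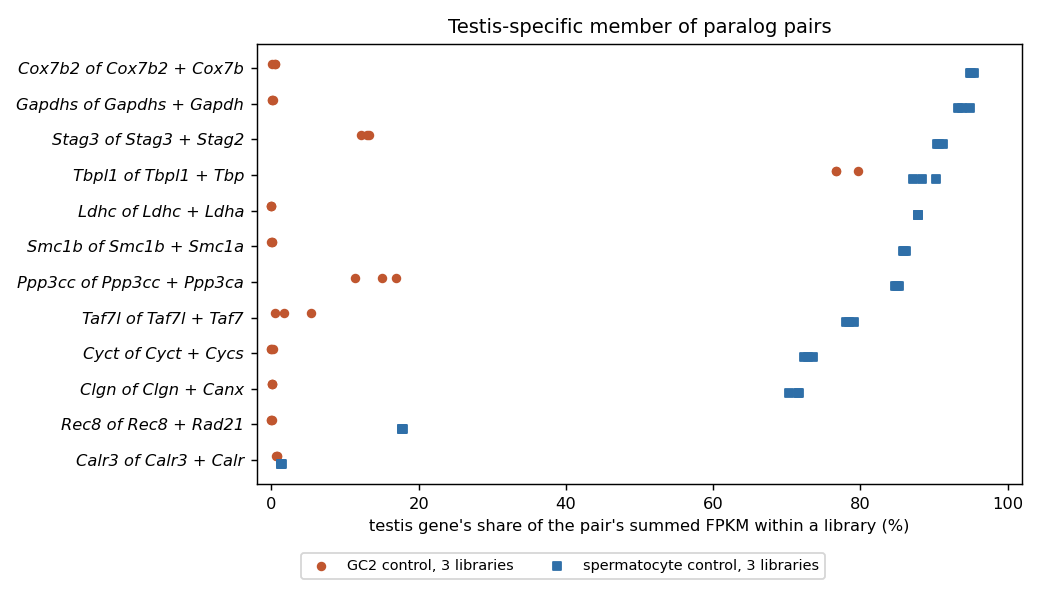
Share of the testis-specific gene in the summed FPKM of a paralog pair (x axis, percent) for 12 of the 13 pairs (y axis), in 3 GC2 control libraries (circles) and 3 spermatocyte control libraries (squares). In 10 of the pairs shown all spermatocyte libraries lie above 50%, and in GC2 the same holds for Tbpl1 only.

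Transcripts of repressors known to keep germ genes off in somatic cells were found in both kinds of sample. Whether these repressors act on germ genes here was not tested. All 16 compared were on in GC2 and in spermatocytes, where 68.7% of all shared genes on in spermatocytes were on in GC2. The list medians were 83.4 to 85.2 in GC2 and 84.1 to 85.0 in spermatocytes. E2f6 was at 8.62, 6.71 and 4.52 FPKM in GC2 and 3.14, 3.07 and 2.83 FPKM in spermatocytes, and its percentile difference fell short of a call. Dnmt1, the maintenance DNA methyltransferase, was at 45.7, 45.3 and 44.5 FPKM in GC2 and 36.6, 36.4 and 35.6 FPKM in spermatocytes. Dnmt3b, a de novo methyltransferase, was the 1 gene called lower, at 1.28, 1.28 and 1.13 FPKM in GC2 and 10.3, 9.65 and 10.00 FPKM in spermatocytes.

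Genes of fibroblasts and the extracellular matrix stood high in GC2. Of 28 compared, 12 were called higher (background 7.97%) and 1 lower, and the list medians were percentile 90.0 to 90.8 in GC2 and 53.8 to 54.6 in spermatocytes. S100a6, a calcium-binding protein of motile cells, was at 400, 436 and 427 FPKM in GC2 and at 1.38, 1.44 and 1.22 FPKM in spermatocytes. Tnc, which encodes the matrix protein tenascin C, was at 11.8, 13.2 and 12.8 FPKM in GC2 and 0.27, 0.18 and 0.20 FPKM in spermatocytes. The collagen gene Col1a1 was at 226, 244 and 238 FPKM in GC2 and 14.5, 14.2 and 13.6 FPKM in spermatocytes, and lay too high in both for a call. Not all fibroblast markers were present, since Thy1 was at 0 to 0.04 FPKM and Pdgfrb at 0.89 to 0.90 FPKM in GC2.

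Some epithelial and mesothelial genes were high in the line while others were under 1 FPKM. Krt19, an epithelial keratin (chromosome 11, 100140810 to 100148665, minus strand), was at 133, 129 and 166 FPKM in GC2 and at 0.49, 0.40 and 0.37 FPKM in spermatocytes. Msln, which encodes the mesothelial surface protein mesothelin (chromosome 17, 25748613 to 25754378, minus strand), was at 36.3, 40.2 and 38.4 FPKM in GC2 and at 0.02, 0.08 and 0.10 FPKM in spermatocytes. The uroplakin genes Upk1b and Upk3b were at 112 to 116 FPKM and 30.5 to 36.3 FPKM in GC2 and at 0 to 0.06 FPKM in spermatocytes. With Krt18, these were the 5 of 14 genes called higher (background 7.97%).

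The epithelial adhesion genes went the other way. Epcam, which spermatogonia also express, was at 0.02, 0 and 0 FPKM in GC2 and 18.7, 17.5 and 17.6 FPKM in spermatocytes, and Cdh1 at 0.02 to 0.04 FPKM and 1.87 to 2.07 FPKM. Both were called lower, as was the claudin gene Cldn4, which made 3 of 14 (background 11.6%). Krt8, the usual partner of Krt18, was at 0.66 to 0.90 FPKM in GC2, where Krt18 was at 126 to 184 FPKM.

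Markers of other somatic cells of the testis were mostly under 1 FPKM in GC2, with exceptions. Of 18 Sertoli cell genes, 12 were called lower (background 11.6%) and 5 were on (27.8%, where the share over all shared genes was 68.7%). Among these Wt1, a transcription factor of Sertoli and mesothelial cells, was at 7.88, 6.27 and 6.57 FPKM in GC2 and 7.98, 11.3 and 8.04 FPKM in spermatocytes. Sox9 was at 0.43 to 0.73 FPKM and the hormone gene Amh at 0.02 to 0.13 FPKM in GC2. The Leydig enzyme gene Cyp17a1 was listed at 0, the endothelial gene Pecam1 was at 0.06 to 0.07 FPKM, and the leukocyte gene Ptprc was at 0 to 0.01 FPKM. Of 9 smooth muscle and peritubular myoid genes, 3 were called lower (background 11.6%) and 1 higher (background 7.97%). In all GC2 libraries 6 of the 9 were under 1 FPKM. Acta2, the smooth muscle actin that cultured fibroblasts also make, was at 88.9, 97.9 and 94.5 FPKM in GC2 and at 10.3 to 11.3 FPKM in spermatocytes, with no call. The 3 called lower were Actg2, Myh11 and Myl9, and Myl9 averaged 0.48 FPKM in GC2 and 18.2 FPKM in spermatocytes.

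Interferon-stimulated genes, the antiviral genes that cells switch on after sensing interferon or foreign nucleic acid, made up the list with the most calls toward GC2. Of 23 compared, 20 were called higher and 0 lower (background 7.97%), 22 were on in GC2 and 8 in spermatocytes. The list medians were percentile 91.2 to 92.3 and 33.5 to 34.9. Ifit1 (chromosome 19, 34640871 to 34650009, plus strand), which binds foreign RNA, was at 80.1, 79.9 and 81.6 FPKM in GC2 and at 0.05, 0.03 and 0 FPKM in spermatocytes. Bst2, which tethers budding virus, was at 151, 182 and 168 FPKM in GC2 and at 4.94, 6.08 and 5.21 FPKM in spermatocytes. The ubiquitin-like Isg15 differed between GC2 libraries, at 193, 1.33 and 191 FPKM, against 0.09 to 0.50 FPKM in spermatocytes. Mx1, Dhx58 and Ifi27 were not called, and Mx1 was under 1 FPKM in all 6 libraries.

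Genes of adhesion and the actin cytoskeleton also stood high, with 8 of 19 called higher (background 7.97%). Anxa1, a membrane-binding annexin, was at 569.8, 501 and 499 FPKM in GC2 and 1.79, 1.91 and 1.75 FPKM in spermatocytes. Ankrd1, a target of YAP in adherent cells, was at 37.6, 33.9 and 32.9 FPKM in GC2 and 0.08 to 0.19 FPKM in spermatocytes. Cd44, a receptor for hyaluronan, was at 8.63, 16.1 and 19.8 FPKM in GC2 and 0.15, 0.29 and 0.26 FPKM in spermatocytes.

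All 33 DNA replication genes and all 28 genes of G2 and mitosis were on in both kinds of sample (background 68.7%). Of the replication genes 8 were called higher in GC2 (background 7.97%), among them Tk1, which makes thymidine nucleotides in S phase, at 17.0, 16.1 and 15.5 FPKM against 1.93, 1.86 and 1.74 FPKM. Of the mitotic genes 1 was called higher (background 7.97%). It was Hmmr, a spindle protein, at 33.8, 31.0 and 30.7 FPKM against 7.13, 7.85 and 7.55 FPKM, and its difference of 20.0 points sat at the threshold. Without GC2 replicate 1 the difference for Hmmr was 19.8 points, and without spermatocyte replicate 1 it was 19.6 points, so both took the call away. Cdc20, which activates the anaphase-promoting complex, was higher in spermatocytes by FPKM, at 105 to 106 FPKM against 32.6 to 42.3 FPKM, with no call. Of 17 targets of p53, 5 were called higher (background 7.97%), including the death receptor gene Fas at 34.6, 17.4 and 32.6 FPKM in GC2 and 0.16 to 0.19 FPKM in spermatocytes. Btg2 was called lower, at 1.36, 8.31 and 1.37 FPKM in GC2 and 28.0 to 29.6 FPKM in spermatocytes.

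Housekeeping machinery stood at like ranks. A row in both tables was present for 44 cytosolic ribosomal protein genes, 28 proteasome genes and 32 nuclear genes of oxidative phosphorylation. All were on in both kinds of sample (background 68.7%), with 0 calls. Their medians lay at percentile 99.2 to 99.5, 96.3 to 98.2 and 95.8 to 97.5 over the 6 libraries. No call was possible for members above percentile 80 in both groups.

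Among all genes called lower, those that ranked highest in spermatocytes were led by Ldhc and by Tuba3b, a testis alpha-tubulin listed at 0 in GC2 and at 803, 815 and 794 FPKM in spermatocytes. Spata4, Smim24, Pgam2, Lrrc46 and Fhl4 were also among the 12 highest. Fhl4, a LIM protein of the testis, was at 0.04, 0.23 and 0.23 FPKM in GC2 and 294 to 295 FPKM in spermatocytes.

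Among genes called higher, those that ranked highest in GC2 included the chemokine Cxcl1 at 242, 222 and 245 FPKM against 5.45 to 6.63 FPKM. Timp3, an inhibitor of matrix proteases, was at 206, 212 and 212 FPKM in GC2 and 8.5 to 9.1 FPKM in spermatocytes. Myof, a membrane repair protein, was at 135, 129 and 136 FPKM in GC2 and 2.3 to 2.4 FPKM in spermatocytes. The tRNA synthetase gene Tars was at 132 to 139 FPKM in GC2 and 8.7 to 9.2 FPKM in spermatocytes.

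Some values rest on how rows were made. The GC2 values of Taf4b, Tdrd9, Ccdc40, Syce2 and Pgam2 come from rows of assembled transcripts. With annotated rows only, 15 of 136 germ list genes were on in both. Eef1a1, the translation elongation factor, was at 3823 FPKM on average in GC2, and its single-gene row in spermatocytes was at 0, while the gene's other row there, shared with Gm26377, held 1211 FPKM. Filip1l was called higher and Cmss1 lower from rows of assembled transcripts at 355 and 367 FPKM, while their annotated rows held 0.740 FPKM in GC2 and 7.88 FPKM in spermatocytes. These 2 genes overlap at 1 locus, so neither call is secure. Tpm3-rs7 is a near-identical copy of Tpm3, and its value is uncertain.

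Meiosis silences the sex chromosomes, so X-linked genes were described apart. Of 696 shared X-linked genes, 84 were called higher in GC2 (12.1%) and 11.6% lower, beside 7.81% and 11.6% of 19401 autosomal genes. Chromosome 19 with 14.8% and chromosome 15 with 13.6% called higher exceeded the X chromosome. The matrix protease inhibitor gene Timp1 was among the X-linked genes called higher, at 104, 103 and 109.9 FPKM in GC2 and 1.0 to 1.7 FPKM in spermatocytes. The metabolic gene Pdha1 was at 24.0, 47.4 and 49.1 FPKM in GC2 and 5.6 to 6.2 FPKM in spermatocytes.

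X-linked genes called lower included the germ cell genes Taf7l, at 0.01, 0.03 and 0.13 FPKM in GC2 and 78.4, 81.8 and 80.1 FPKM in spermatocytes, and Tex11, at 0 to 0.03 FPKM and 18.7 to 19.4 FPKM. On the Y chromosome, Ddx3y, Eif2s3y, Kdm5d and Uty had values above 0.8 FPKM in all GC2 libraries and were not called. Uba1y, a Y-linked ubiquitin-activating enzyme of the testis, was at 0 to 0.01 FPKM in GC2 and 23.3 to 29.6 FPKM in spermatocytes.

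**Figure D5:**
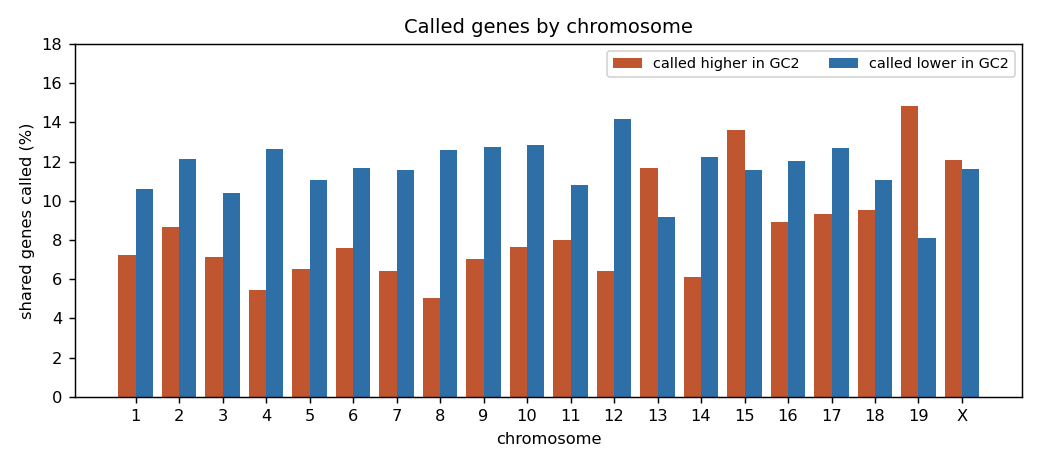
Percent of shared genes called higher (left bar) or lower (right bar) in GC2 (y axis) on each autosome and the X chromosome (x axis). The X chromosome has 12.1% called higher, below chromosomes 19 and 15, and its 11.6% called lower is near the autosomal share.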

How the data were processed

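RNA was sequenced in 3 control GC2 and 3 control spermatocyte libraries. Per the labels' protocols, RNA was extracted with TRIzol and the kit marked strand. The authors deposited FPKM for each row of genes. The submitters' processing notes name HISAT2 (2.1.0) and DESeq, with GRCm38 and mm10 as builds. The sources used here do not name the quantifier, annotation or filters behind the FPKM. FPKM totals were 203973 to 206711 in GC2 and 289707 to 292931 in spermatocytes. Depth is not stated and the low values gave no settled step, so no counting interval is given.

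Rows naming several genes were left out, and of several single-gene rows the one with the highest group mean was used. For 47.1% of shared genes both rows had the same transcripts. The percentile rule, the lists and the members were chosen with earlier results of these data known. On simulated data the rule was tested with 200 moved genes. Named genes are, by rule, the 12 highest-ranking called in each direction, up to 6 called members of a list, germ genes on in GC2, the most abundant somatic marker, the paralog pairs, Phb and the defining cell type markers. The genes Lin28a, Prdm9, Trip13, Syce1, Mael, Insl6, E2f6, Dnmt1, Krt8, Isg15, Mx1, Dhx58, Ifi27, Cdc20, Pdha1 and those of the Y chromosome were named with their values known. A few genes that are counted are not reported here by name. Gene positions come from GENCODE M21. The work ran in Python 3.11.15 with numpy 2.4.6, pandas 2.3.3 and, for plots, matplotlib 3.10.9. Alternatives were another threshold, floor, tie rule, row choice and scale, and leaving out each library.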

Additional observations from a re-analysis of the deposited data

How the results depend on the processing

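The 119 germ list genes called lower and the 2348 calls lower stayed within 1.5 times under every alternative other than the same transcripts. Of 58 counts of calls by list and direction, 20 moved further with a difference of 10 points, 5 with 30 points, 19 with the mean filter, 23 with quantile normalization and 27 with the same transcripts. Of 186 named genes, 142 kept their call under every setting that gave them a value and 44 changed it under at least one. Calls higher, 1606 at first, numbered 3094 with a difference of 10 points, 846 with 30 points, 2690 without the FPKM floor, 2679 among genes with a mean of 1 FPKM or more, and 2952 with quantile normalized log2 values at 2-fold. X-linked calls higher, 84 at first, numbered 163, 33, 130, 148 and 161 in the same order. Germ list genes on in both were 10 of 133 at a threshold of 2 FPKM. Among the 9494 genes with the same transcripts in both tables, an alternative chosen after seeing the data, there were 795 calls lower, 275 higher, 10 on the X chromosome, 24 germ list calls lower and 6 of 32 germ list genes on in both. Spearman's rho between groups was 0.664 at first, 0.672 with annotated rows only, 0.362 among genes with a mean of 1 FPKM or more and 0.609 with the same transcripts. Fewer genes enter with the mean filter and the same transcripts, and the cause of the other shifts was not tested.

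Leaving out each library in turn gave 2361 to 2421 calls lower, 1605 to 1698 higher, 119 to 119 germ list calls lower, 83 to 88 X-linked calls higher, 18 to 21 germ list genes on in both, a rho of 0.662 to 0.667, and a median testis share of 0.305% to 0.497% in GC2 and 84.9% to 85.1% in spermatocytes. The G2 and mitosis list had 0 calls higher without GC2 replicate 1 or spermatocyte replicate 1, and 2 without spermatocyte replicate 3. Leydig markers had 2 calls lower without GC2 replicate 1. The shared repair list had 2 calls lower without GC2 replicate 3, or without spermatocyte replicate 1 or 3. Germline repressors had 1 call higher without GC2 replicate 3, the fibroblast list 2 calls lower without spermatocyte replicate 2, and ribosomal protein genes 1 call lower without spermatocyte replicate 3. With annotated rows only, Filip1l reversed to -13.4 points. No paired analysis was possible, since the sources used here name no culture or animal that links a GC2 library to a spermatocyte library. Kind of sample and table cannot be told apart, and unstated depth limits what a value near 0 means.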
